A study of Homo sapiens with 2 samples.

Results

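The TOM complex is the entry gate of the mitochondrial outer membrane, and its 7 genes, TOMM20, TOMM22, TOMM40, TOMM70, TOMM5, TOMM6 and TOMM7, were looked up among the binding sites of the RNA-binding protein YBX1. A site was given to a gene when its midpoint lay within the gene's span in GENCODE on the site's own strand. The 7 genes held 6 of the 2054 listed sites. All 6 lay in the 3′UTR of TOMM20, and the other 6 genes held 0 sites. TOMM20 had been chosen by its number of listed sites and by the sequence copies that several of them have elsewhere in the genome, so these values are a description and were not tested.

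The sites came from PAR-CLIP of YBX1 in HEK293, a line from human embryonic kidney, in 2 replicates that were pooled into 1 list before deposit. According to the study's methods, these were T-REx HEK293 Flp-In cells, modified to overexpress FLAG/HA-tagged YBX1 stably, and the tagged protein was pulled down through FLAG. The list holds no control or input library. The sample labels name an antibody against YBX1 (D2A11) instead. In PAR-CLIP, cells take up 4-thiouridine, ultraviolet light links this uridine analog to a protein in contact with it, and the RNA is cut with RNase T1, which cuts after G. The list holds a position, a strand and an annotation for each site but no read count or score, so the depth behind each site is unknown, the spread between the replicates could not be measured and nothing could be ranked by strength. RNA levels were not measured in these cells either, so a gene that YBX1 did not bind cannot be told apart from a gene with little RNA.

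Nearly all mitochondrial proteins are made in the cytosol and enter the organelle through the TOM complex. TOMM20 is the receptor that recognizes the cleavable N-terminal signal of many precursors, TOMM70 is a receptor for hydrophobic precursors brought by cytosolic chaperones, and TOMM22 is the central receptor that also holds the complex together. TOMM40 forms the channel, and the small subunits TOMM5, TOMM6 and TOMM7 help to assemble and stabilize it. YBX1 is a cold shock domain protein that packages cytoplasmic mRNA and is known for its part in mRNA translation and stability.

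The 6 TOMM20 sites are shown because all further values refer to them. They are numbered from the stop codon and written 5′ to 3′ on the RNA strand with T for U, as read from hg38. Capitals mark any of 11 tetramers, described in the next paragraph.
site 1: ctataaatacactatg
site 2: tttccatttaatctctg
site 3: AACAAatcACATttCATCtttg
site 4: cacACTTACtaaaaAACTTtg
site 5: ttattTTACCATCctccCACCtg
site 6: aTAACATACAAaatctttttg

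The 11 tetramers were looked up on the RNA strand alone, can overlap each other and were taken from earlier results of these data. AACA occurred in 2 of the 6 TOMM20 sites, against 28.5% of the 955 listed sites in 3′UTRs. CAUC occurred in 2 sites, against 25.0%, ACAU in 2, against 29.1%, ACAA in 2, against 21.3%, and UUAC in 2, against 24.5%. A single TOMM20 site held AACU, against 31.5%, and 1 each held UAAC, against 29.2%, ACUU, against 30.2%, and CACC, against 10.5%. No TOMM20 site held CAAC, found in 22.3% of the sites in 3′UTRs, or ACUC, found in 20.8%. Sites 3 and 6 thus held 4 of the tetramers each, sites 4 and 5 held 3 each, and sites 1 and 2 held 0.

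TOMM20 (ENSG00000173726) lies on the minus strand at chr1:235109341-235128837 of hg38. Its MANE Select transcript, ENST00000366607, has 5 exons, and its 3′UTR lies within 1 of them. Site 1 spans chr1:235111840-235111855 and has 16 nt. Site 2 spans chr1:235111573-235111589 and has 17 nt. The 2 sites nearest to the stop codon were thus also the 2 shortest. Site 3 spans chr1:235110600-235110621 with 22 nt, and site 4 spans chr1:235109797-235109817 with 21 nt. Site 5 spans chr1:235109526-235109548 and was the longest with 23 nt. Site 6 spans chr1:235109415-235109435 with 21 nt. The median width of the 6 sites was 21 nt, against 22 nt over all 2054 sites.

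The 3′UTR of this transcript is 2723 nt long and makes up 82.9% of a 3283-nt mRNA, against 435 coding nt and a 5′UTR of 122 nt. The sites started 209, 475, 1443, 2247, 2516 and 2629 nt after the stop codon. They were spread over the whole 3′UTR, with gaps between neighbouring sites of 250, 951, 782, 248 and 90 nt. Sites 4 to 6 were nearest to the annotated transcript end. Site 4 ended 456 nt before it, site 5 ended 185 nt before it and site 6 ended 74 nt before it. The coding sequence and the 5′UTR held 0 sites. In the deposited annotation, 5 sites carried the class 3′ UTR and site 6 carried the class TTS (transcription termination site). In GENCODE, site 6 lay in the same exon and 3′UTR as the others.

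Poly(A) signals are the short sequences near which an mRNA is cut and its tail is added. The 3′UTR held the hexamer AAUAAA once, 18 nt after the stop codon, and the variant AUUAAA at 450, 2552 and 2704 nt, the last of them 14 nt before the annotated transcript end. Site 2 started 20 nt after the end of the hexamer at 450 nt, and site 5 ended 14 nt before the hexamer at 2552 nt. Site 6 lay between the last 2 hexamers, starting 72 nt after the one and ending 55 nt before the other. The hexamers were looked up on the RNA strand alone and are a match of letters. Which end the TOMM20 mRNA used in these cells was not measured.

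**Figure D1:**
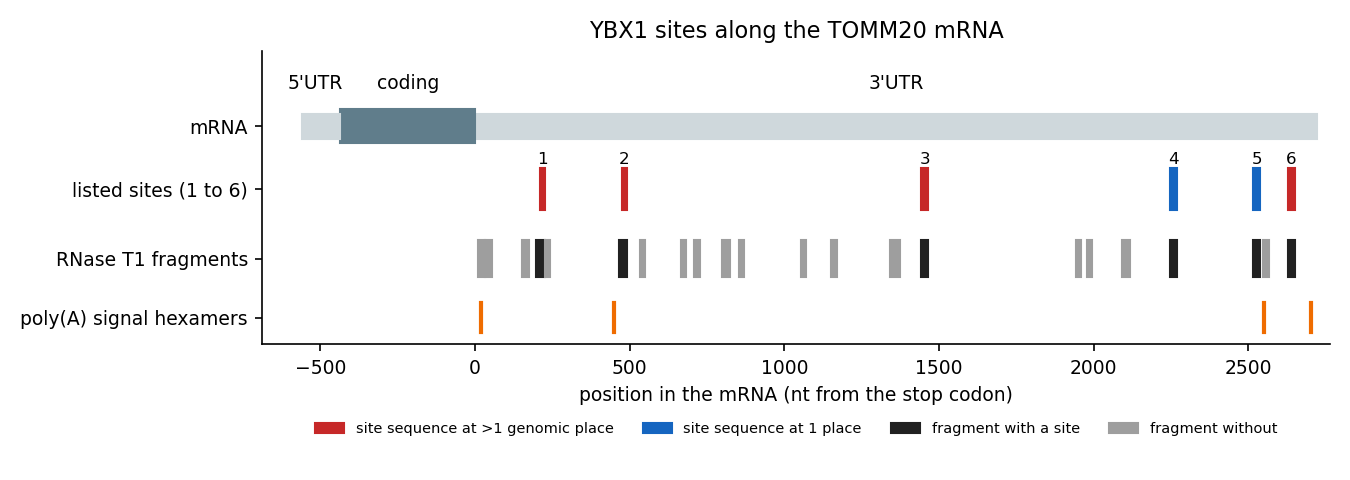
Map of the TOMM20 mRNA with the position in nt from the stop codon on the x axis. The rows show the mRNA parts, the 6 listed sites (red, sequence found at more than 1 genomic place; blue, at 1 place), the 22 RNase T1 fragments of at least 16 nt in the 3′UTR (black, with a site; grey, without) and the AAUAAA and AUUAAA hexamers in orange. The 6 sites lie between 209 and 2649 nt, and 16 fragments between and around them hold no site.

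Each of the 6 TOMM20 sites ended in G and held no other G. Over all sites, 87.6% ended in G (1800 sites) and 79.2% followed a G (1626 sites). Sites 3, 4 and 6 ran from the base after one G to the next G and so were whole RNase T1 fragments, as were 64.5% of all sites (1325 sites). Sites 1 and 2 were shorter than the fragments around them, which have 27 and 25 nt, and site 5 lacked 1 nt of its 24-nt fragment. The last base of every site had been set 1 before the listed end because this G lies there in most sites, so the closing G is not a result about TOMM20.

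In the 3′UTR of TOMM20, 22 RNase T1 fragments of at least 16 nt held at least 1 U, and 6 of the 22 (27.3%, 95% Wilson interval 13.2 to 48.2) held a listed site. Over all 3′UTRs with a site, 4.3% of 21615 such fragments held one. Fragments and sites of 1 mRNA share their source, and the interval covers counting error only. The 6 fragments with a site had a median width of 23 nt (21 to 27) and the 16 without one a median of 19 nt (16 to 34). The fragments with a site were thus mostly the longer ones, although the longest, of 34 nt, held no site. The study's methods describe a selection of RNA by size and the removal of short reads before sites were called. Only reads of more than 16 bases were kept, so fragments of exactly 16 nt, which are counted here, fall short of that length. How far these steps set the difference in width, or the number of fragments without a site, was not tested.

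The share of C and A was examined because these bases are common in the sites of this list. The 6 sites held 57.5% C and A over 120 bases (95% Wilson interval 48.6 to 66.0), against 44.7% over the 2603 bases of the rest of the 3′UTR (42.8 to 46.6). The difference was 12.8 percentage points (3.84 to 21.3, from the interval of the sites alone), and all these intervals cover counting error only. All 953 sites in 3′UTRs that were at most 100 nt wide held 60.1%. Site 2 was the lowest with 41.2%, followed by site 5 with 56.5%, site 6 with 57.1%, site 3 with 59.1% and site 1 with 62.5%, and site 4 was the highest with 66.7%. The median of the 6 was 58.1%, against a median of 60% over all sites in 3′UTRs (25 to 89.5%).

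The sites of TOMM20 contained 5.0% G, against 22.1% in the rest of the 3′UTR, since each site held only its last G. Among A, C and U alone, C and A made up 60.5% of the site bases and 57.4% of the rest. Within RNase T1 fragments of this 3′UTR, those with a site held 55.7% C and A and those without one held 53.7%. The median fragment had 56.3% C and A both with a site (44 to 66.7%) and without (29.4 to 70.4%). With G set aside, the difference of 12.8 percentage points shrank to 3.13, and between fragments with and without a site it was 1.99.

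**Figure D2:**
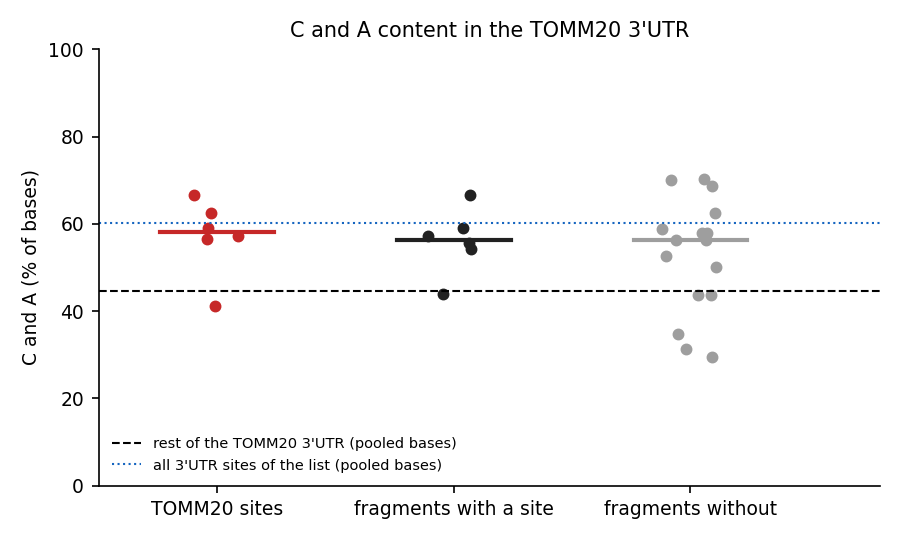
Share of C and A in percent of bases, for the 6 TOMM20 sites, the 6 RNase T1 fragments of the TOMM20 3′UTR with a site and the 16 without. Points are single sites or fragments, short bars are medians, the dashed line is the rest of the 3′UTR (44.7%) and the dotted line all 3′UTR sites of the list (60.1%). The fragments without a site cover the range of those with one.

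A tetramer occurred in 5 of the 6 fragments with a site and in 9 of the 16 without one. The median number of tetramers was 3 (0 to 4) in fragments with a site and 1 (0 to 5) in those without. The tetramers came from earlier results of these data, and the fragments with a site were mostly longer. Nothing was read from this difference. For comparison, 3 of the TOMM20 fragments without a listed site that held the most tetramers are shown. The first has 70% C and A, more than any of the 6 sites, and the 3 fragments hold 3, 3 and 4 of the tetramers. They start 11, 800 and 2547 nt after the stop codon, and the last of them begins 9 nt beyond the end of site 5. Capitals again mark the tetramers.
chr1:235112034-235112053: tCAACATaataaaatctcag
chr1:235111241-235111264: CATCtttaaatcCACCtTAACctg
chr1:235109499-235109517: ACTTtattaaatCAACATg
Sites 1 to 6, with 41.2 to 66.7% C and A and 0 to 4 tetramers, overlapped with these picked fragments in both features. Site 1 held 0 tetramers, but the wider fragment around it held 2.

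Processed pseudogenes are copies of an mRNA that were written back into the genome, and a short read from the mRNA can match such a copy equally well. The sequences of sites 1, 2, 3 and 6 occurred at more than 1 place of hg38 without a mismatch, so 4 of the 6 sites did. Over the whole list 8.13% of sites did (167 of 2054), and 13.1% of those in 3′UTRs (125 of 955). Copies were part of the reason for choosing TOMM20, so nothing was read from this difference. Sites 4 and 5 occurred only in TOMM20.

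The locus of TOMM20P4, a processed pseudogene on the plus strand of chromosome X, held an exact copy of all 4. The locus is the stretch that aligned with the TOMM20 mRNA and overlaps the annotated pseudogene. The 4 copies themselves lay outside every gene span in GENCODE. The copy of site 1 lay at chrX:73223770-73223785, that of site 2 at chrX:73224026-73224042, that of site 3 at chrX:73225005-73225026 and that of site 6 at chrX:73226196-73226216. Sites 3 and 6 had this 1 copy only. The identical stretch around each site was 37 nt for site 1, 25 nt for site 2 and 54 nt for both site 3 and site 6. At sites 1, 3 and 6 this stretch took in the whole RNase T1 fragment around the site, whereas at site 2 it began 4 nt before the site and its fragment 8 nt before it.

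Sites 1 and 2, the short ones, also matched places outside the copies of the TOMM20 mRNA. Site 1 occurred at chr1:87734853-87734868, on the strand opposite to the noncoding gene PKN2-AS1, and at chr7:123095583-123095598, opposite to another noncoding gene (ENSG00000226680). Site 2 occurred in an intron of the noncoding gene LUCAT1 (chr5:91277253-91277269) and in an intron of ANKS1A (chr6:34928588-34928604). With 10 more nt on each side, the sequence of site 3 alone still occurred at more than 1 place, namely at 2. The number of listed sites at any of these other places was 0. How the aligner placed reads that match several places is not given in the sources used here.

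Short sites of the whole list had copies more often than longer ones. The share with more than 1 place was 46.6% of 88 sites of 14 to 17 nt, 11.8% of 542 sites of 18 to 20 nt, 5.56% of 719 sites of 21 to 23 nt and 2.90% of 656 sites of 24 to 30 nt. Sites 1 and 2 fell in the first of these classes and the other 4 TOMM20 sites in the third. Within the TOMM20 3′UTR, 3 of the 6 fragments with a site and 12 of the 16 without one occurred at more than 1 place.

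A search with the TOMM20 mRNA found 8 loci that hold a copy of part or all of it. Named loci carry the name of an annotated pseudogene that they overlap, and the positions given are those of the alignment. TOMM20P4 (chrX:73223011-73226290) covered 99.8% of the mRNA with 94.8% identity. TOMM20P1 (chr11:77313477-77317772) covered 99.9% with 90.3% identity, and TOMM20P2 (chr17:35511170-35515307) covered 100% with 78.4% identity. The remaining 5 loci covered between 6.03% and 27.2%, and TOMM20P3 on chromosome 18 was among them. All 8 loci together held 0 listed sites.

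Some of the sites at which the copies differ from TOMM20 are shown, with changed or inserted bases in capitals. They are both sites that differ in TOMM20P4, and examples from TOMM20P1 and TOMM20P2, which also differ at their other sites. Positions of substitutions are counted from 1 at the 5′ end of the site, with the base of TOMM20 first.
TOMM20P4, site 4: cacacttactaAAAACaaaaactttg
TOMM20P4, site 5: ttattttaccatcTtcccacctg
TOMM20P1, site 2: tttccatttaatctctT
TOMM20P1, site 3: aGcaaGtcacatttcatctCtg
TOMM20P1, site 5: ttattttaccaAcTtccTGcctg
TOMM20P1, site 6: ataTcataGaCaatctttttg
TOMM20P2, site 2: AttccatttaatctctT
TOMM20P2, site 3: GGcaaGtcacaGttcatctCtg
In TOMM20P4, site 4 carried 5 inserted bases and site 5 carried the single substitution C14T, so these are the 2 sites that set TOMM20 apart from its closest copy. TOMM20P1 carried the same insertion in site 4. In both TOMM20P1 and TOMM20P2 the substitution G17T removed the G at which site 2 ends. The changes A2G and A6G put additional Gs, after which RNase T1 cuts, into site 3 of the same 2 copies. Over its 6 sites, TOMM20P1 differed by 1, 1, 3, 5, 4 and 3 bases, and TOMM20P2 by 3, 2, 5, 3, 5 and 5 bases.

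**Figure D3:**
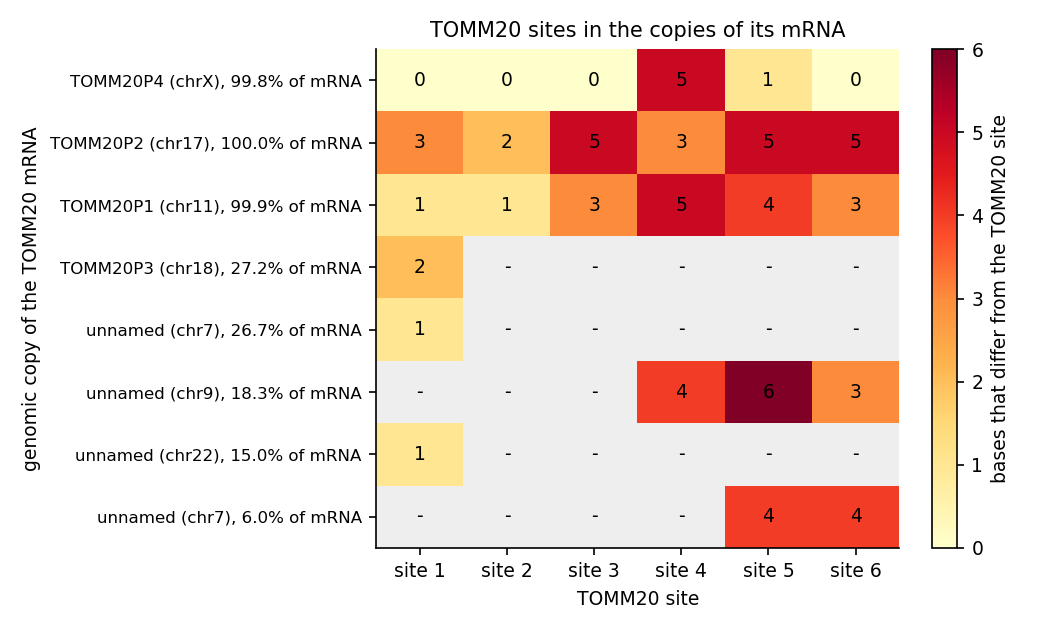
Number of bases by which 8 genomic copies of the TOMM20 mRNA (rows, with the share of the mRNA each covers) differ from the 6 sites (columns), inserted and missing bases included. A dash marks a site outside the copy. TOMM20P4 has 0 differing bases at sites 1, 2, 3 and 6, 5 at site 4 and 1 at site 5.

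The 6 sites gave TOMM20 2.20 sites per kb of 3′UTR (exact Poisson 95% interval 0.809 to 4.80, counting error only). Of 19550 genes that code for a protein and have a 3′UTR, 6.9% had at least 1 site in their span, 3.82% (746 genes) had at least 1 in the 3′UTR and 0.107% (21 genes) had at least 4 there. TOMM20 was the third of the 746 by number, after NUCKS1 with 10 sites and CBX5 with 8, and no other gene had 6. Per kb it was the 48th, against a median of 0.454 sites per kb. Among the 21 genes with at least 4 sites it was the third per kb. Among the 224 genes with a site and a 3′UTR of 2000 to 3500 nt, TOMM20 had the most sites, followed by genes with 5, and the median was 1. It did not lead them per kb, since a gene with 5 sites had 2.45 against 2.20. TOMM20 had been chosen by its number of sites, so these ranks are a description.

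Of the genes with at least 4 sites in the 3′UTR, 4 of those most like TOMM20 in the share of sites with a sequence copy are described. EIF1AX, which encodes a translation initiation factor, had 3 of 5 sites at more than 1 place. UTP14C and ALG11 on chromosome 13 had 2 of 4, but their 3′UTRs overlap and all 4 sites are the same. PAFAH1B2, a subunit of an enzyme that inactivates platelet-activating factor, had 2 of 4. TOMM20 had 4 of 6. By sites per kb, EIF1AX had 1.32, UTP14C had 1.60, PAFAH1B2 had 1.20 and ALG11 had 0.798, against 2.20 in TOMM20.

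**Figure D4:**
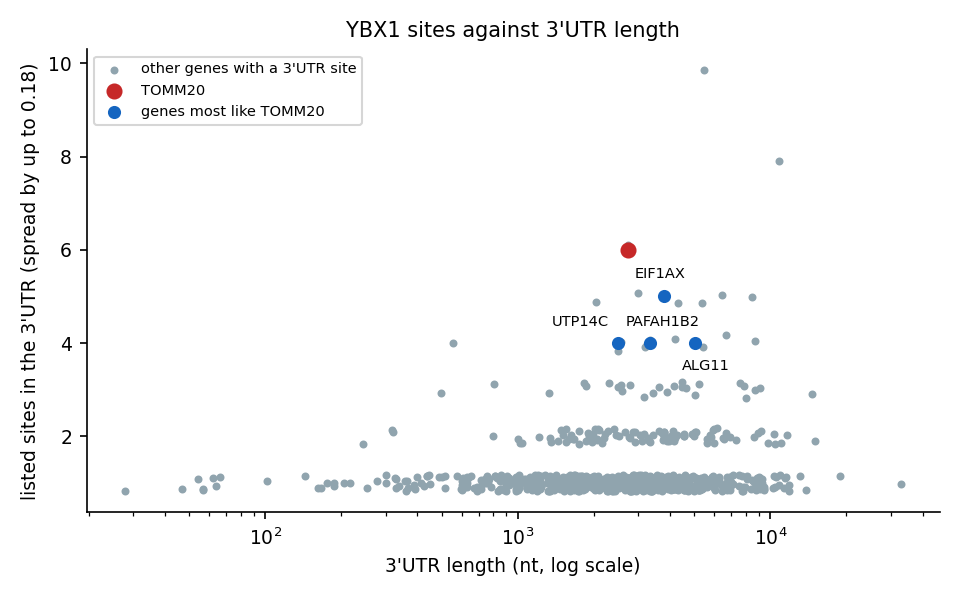
Number of listed sites in the 3′UTR against 3′UTR length in nt (log scale) for the 746 genes with such a site. TOMM20 is red, 4 genes like it in the share of sites with copies are blue and named, and grey points are spread slightly up and down to show overlapping genes. TOMM20 has 6 sites at 2723 nt, and only 2 genes lie above it.

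The other 6 TOM genes held 0 sites anywhere in their spans. Of all genes that code for a protein and have a 3′UTR, only 6.9% held at least 1 in their span, so most genes held 0. A count of 0 allows up to 3.69 sites (exact Poisson 95% interval), and 3′UTR length set how much this says for each gene. TOMM70, the chaperone-docking receptor (chr3:100363431-100401089), has a 3′UTR of 2133 nt, in which the rate of TOMM20 would give 4.70 sites. TOMM22, the central receptor (chr22:38681957-38685421), has 1580 nt, in which that rate would give 3.48 sites. The count of 0 allows at most 1.73 sites per kb in TOMM70 and 2.33 in TOMM22. These limits cover counting error only, and nothing was read from them against the rate of TOMM20, since its count was what it had been chosen by.

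The channel gene TOMM40 (chr19:44890569-44903689) has a 3′UTR of 520 nt and an upper limit of 7.09 sites per kb. Among the small subunits, TOMM5 (chr9:37582646-37592604) has 485 nt and an upper limit of 7.61, TOMM6 (chr6:41787662-41789898) has 336 nt, and TOMM7 (chr7:22812628-22822849) has 196 nt and an upper limit of 18.8. The rate of TOMM20 would give 1.15 sites in TOMM40, 1.07 in TOMM5, 0.740 in TOMM6 and 0.432 in TOMM7. The longest annotated 3′UTRs of TOMM40 (2332 nt) and TOMM5 (2855 nt) also held 0 sites. The numbers at the rate of TOMM20 describe 3′UTR length and are no test.

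RNase T1 fragments of at least 16 nt that contain U were present in 5 of the other 6 genes. TOMM70 had 21 of them, TOMM22 had 13, TOMM40 had 5, and TOMM5 and TOMM6 had 3 each. TOMM7 had 0, and its longest G-free run with the closing G was 12 nt. Of these 45 fragments, 0 held a site (upper limit 7.87%, 95% Wilson interval). The share of 4.3% over all 3′UTRs with a site would give 1.93 of the 45. That share was taken only over 3′UTRs that hold a site, which these 6 genes do not. The 1.93 is thus no expected number for them, and nothing was read from it. In TOMM20, 6 of 22 fragments held a site, and those 6 had 21 to 27 nt. Both the 45 and the 22 include many shorter fragments. TOMM20 had been chosen by its sites, so the difference between it and the other genes was not tested. The part that the selection of RNA and reads by length had in these counts was not tested either.

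The composition and density of these fragments were set beside those of TOMM20. Per kb of 3′UTR there were 9.85 in TOMM70, 8.23 in TOMM22, 9.62 in TOMM40, 6.19 in TOMM5 and 8.93 in TOMM6, against 8.08 in TOMM20. The C and A share of the whole 3′UTR was 45.5% in TOMM70, 48.1% in TOMM22, 55.4% in TOMM40, 48.2% in TOMM5, 51.8% in TOMM6 and 44.4% in TOMM7, against 45.3% in TOMM20. A tetramer occurred in 32 of the 45 fragments of the other genes and in 14 of the 22 of TOMM20. Among the genes with such fragments, those of TOMM40 had the most C and A, with 75.8% over 5 fragments, against 54.3% in TOMM20.

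The fragments with 4 of the tetramers in TOMM22 and TOMM70 are shown, since they carry as many as any TOMM20 site and were not listed. The first and the last of them have 17 nt, whereas the TOMM20 fragments with a site have 21 to 27 nt.
TOMM22, chr22:38684567-38684583: CACCtcCATCtTAACAg
TOMM22, chr22:38684873-38684898: CAACctcTTACctcccctcCAACTTg
TOMM70, chr3:100364189-100364211: ctTTACTCCACCtccTTACTTag
TOMM70, chr3:100363682-100363698: tatTTACATTAACActg
The fragment with the most C and A in TOMM22, at 77.3%, was not listed either.
TOMM22, chr22:38685110-38685131: atCAACCAACActACAAtctag
Copies in the genome were also frequent among the fragments of these genes. They were found for 9 of 21 fragments in TOMM70, 7 of 13 in TOMM22, 2 of 5 in TOMM40, 2 of 3 in TOMM5 and 2 of 3 in TOMM6, against 15 of 22 in TOMM20.

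**Figure D5:**
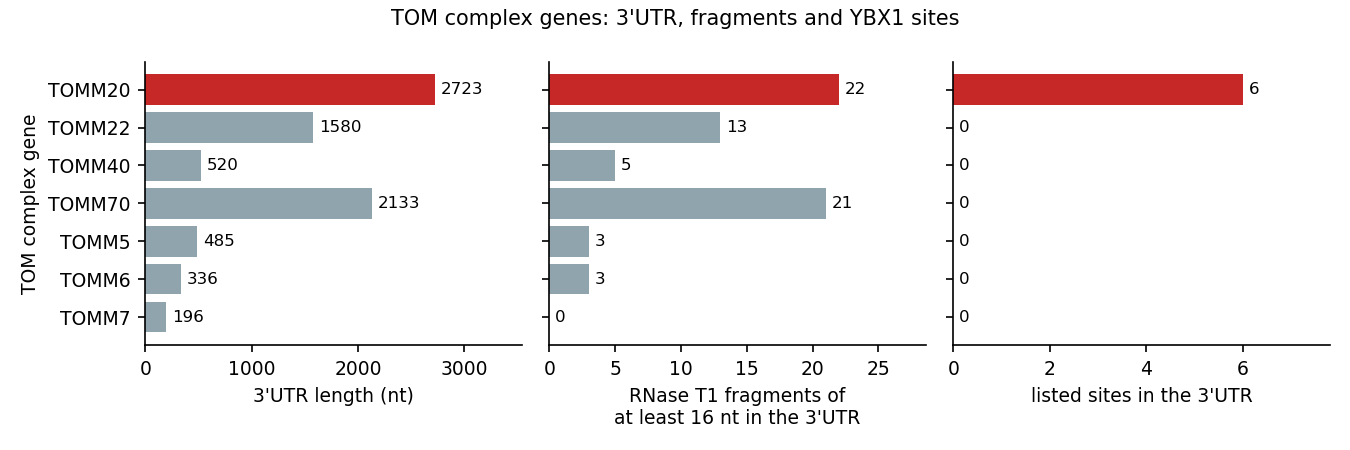
Length of the 3′UTR in nt, number of RNase T1 fragments of at least 16 nt in it and number of listed sites for the 7 TOM complex genes, with TOMM20 in red. The 3′UTR of TOMM70 has 2133 nt, 21 fragments and 0 sites, against 2723 nt, 22 fragments and 6 sites in TOMM20. The fragments counted include ones shorter than any TOMM20 fragment with a site.

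Beyond the TOM complex, a list of 53 further genes of mitochondrial import was looked up. Of these, 11 genes (20.8%) held 17 sites, against 6.9% of all genes coding for a protein. Of the 17 sites, 9 lay in 3′UTRs, 7 in coding exons and 1 in a 5′UTR, whereas TOMM20 had all 6 in the 3′UTR. None of the 17 sequences occurred at more than 1 place, against 8.13% of all listed sites and 4 of 6 in TOMM20. Copies were part of the reason for choosing TOMM20, so nothing was read from this difference. In the import list HSP90AA1 had the most sites, 3, which is fewer than the 6 of TOMM20. The list was put together with earlier results of these data known, and nothing was called particular to it.

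Of the inner membrane TIM23 channel and its motor, which take over precursors from the TOM complex, 3 of 13 genes held sites. The share over all genes coding for a protein was 6.9%. TIMM23, a channel-forming subunit, held 1 (chr10:46003723-46003747) with 76% C and A, more than any TOMM20 site. GRPEL1 and GRPEL2, the nucleotide exchange factors of the import motor, held 2 each in their 3′UTRs. Of the 8 genes of the TIM22 complex and the small TIM chaperones, 0 held a site. The 3 genes of intermembrane space assembly, the 3 mitochondrial chaperones and OXA1L, the insertase of the inner membrane, also held 0. MTX3 held 1 in the sorting and assembly group of 4, and PMPCB, a subunit of the peptidase that removes import signals, held 1 in a group of 5.
TIMM23, chr10:46003723-46003747: ttaTAACTCCAACAcACAAACATag
GRPEL1, chr4:7060194-7060218: ACATatttaaatcatattCAACTag
GRPEL2, chr5:149352078-149352104: taatTTACctACAACTTattcCACCag
These sites from the partner channel and its motor are shown beside those of TOMM20, 1 per gene, and capitals mark the tetramers. Those of GRPEL1 and GRPEL2 are the ones with more C and A. They had 60% and 63.0%, against 47.6% and 60.9% in the sites not shown.

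The cytosolic chaperones that hand precursors to TOMM70 and TOMM20 held sites in 4 of 6 genes. The share over all genes coding for a protein was 6.9%, and the RNA levels of these chaperones were not measured. HSP90AA1 had 3, HSP90AB1 had 2, the cochaperone DNAJA2 had 2 and HSPA8 had 1. Of these 8 sites, 6 lay in coding exons or a 5′UTR, and over the whole list 955 of 2054 sites lay in 3′UTRs. Among outer membrane proteins, VDAC1, the main metabolite channel, held 1 site in its 3′UTR (chr5:133971935-133971959), which the deposited annotation gives to the pseudogene name VDAC1P1, and MTCH2, an outer membrane insertase, held 1 in a coding exon. The TOM paralogs TOMM20L and TOMM40L, the gene TOMM34 and the TOM-bound kinase PINK1 held 0 sites. The nearest listed site outside TOMM20 lay 2989 nt away in RBM34 (chr1:235131826-235131848), on the same strand.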

How the data were processed

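Binding sites of YBX1 were measured by PAR-CLIP in 2 replicates of HEK293 cells, and the authors deposited 1 list made from both. The authors removed adapters (cutadapt 1.4.1), mapped the reads with PARA-suite against genome build GRCh38 and Ensembl transcripts, called stranded sites with BMix at default settings and annotated them with HOMER. The deposited values are positions, with no count or score, so depth per site and per sample is unknown and no test was made.

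Positions were read as starting at base 1, and each site was ended 1 base before its listed end, where the G left by RNase T1 lies. Sites were placed in GENCODE release 44 by their midpoint on their own strand, with the MANE Select transcript for lengths. Copies were exact matches on either strand of the hg38 chromosomes. Loci similar to the mRNA came from BLAST 2.17.0 (E-value up to 1e-05). RNase T1 fragments ran from the base after a G to the next G, had at least 16 nt and contained U. Wilson and exact Poisson intervals (95%) came from scipy 1.17.1, with Python 3.11.15, numpy 2.4.6 and pysam 0.24.0. The copy search and the placement of sites in genes were tested on simulated data. Named genes were the 7 TOM genes, every gene of the import list with a site, the genes and pseudogenes at a copy of a site, and the 5 genes with at least 4 sites in the 3′UTR that had the highest share of sites with copies, of which 1 is not reported here. The members, the import list and the tetramers were chosen with earlier results of these data known. Fragments printed without a site, and the RBM34 site, were chosen after their values were seen. Alternatives in overlap, strand, gene names, width, mismatches and 3′UTR length were tried.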

Additional observations from a re-analysis of the deposited data

How the results depend on the processing

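TOMM20 and the TOM genes together held 6 sites with any overlap, without regard to strand, by the deposited gene names and with sites within 50 nt merged, but 1 with sites wider than the median of 22 nt alone, when the import list fell to 7 genes with a site, against 11. The sites with copies numbered 6 with up to 1 or 2 mismatches and 1 with 10 more nt on each side. Sites per kb were 0.734 over sites with a unique sequence and 0.367 over those wider than the median. The difference in C and A was 3.13 percentage points among A, C and U alone, and 1.99 points against fragments without a site, a comparison added after seeing the data. These changes follow from how the alternatives are built: a looser match in the case of mismatches, and otherwise fewer sites, longer sequences or a comparison among bases or fragments with little or no G. Of all alternatives, 23 were labelled as unchanged and 8 as moved. The 23 include the rise from 4 to 6 sites with copies when mismatches were allowed. They also include the same counts entered for TOMM20 and for the TOM genes together. No paired analysis was possible because the replicates were pooled before deposit, and leaving out a replicate could not be run for the same reason.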
